A study of Drepana arcuata with 6 samples.

Results

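Among the genes that influence social behaviour in other invertebrates, foraging, a cAMP-dependent protein kinase and syntaxin 1a were measured in early and late instar larvae of Drepana arcuata, the masked birch caterpillar. They are the Trinity genes TRINITY_DN18355_c0_g1 (foraging), TRINITY_DN13079_c0_g1 (cAMP-dependent protein kinase) and TRINITY_DN21083_c1_g1 (syntaxin 1a). Trinity, the assembler, places transcripts built from shared sequence in 1 gene and calls them its isoforms. Every isoform assigned to these gene identifiers was taken, which gave 34 of the 231348 transcripts and 3 of the 116079 Trinity genes. The names are those the study gave from the closest known proteins, and the tables themselves carry identifiers only. None of the isoforms was checked here as coding for the named protein.

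RNA of whole larvae was sequenced from pools of 20 early instars (I and II mixed) and pools of 5 late instars (IV and V mixed), with 3 pools and libraries per stage. All larvae hatched from the eggs of the same wild-caught female and were fed paper birch. Early instars live in groups and late instars live alone, and the comparison asks which candidate social genes differ in level between them. Larval age, body size, social state and pool size changed together and cannot be told apart.

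The protein made by foraging is a cGMP-dependent protein kinase, an enzyme that adds phosphate to other proteins when the messenger cGMP is present. In Drosophila melanogaster its natural alleles set how far larvae travel while feeding. The cAMP-dependent protein kinase answers to the related messenger cAMP, which many receptors for neurotransmitters and hormones raise or lower, and it takes part in learning and memory in insects. Syntaxin 1a sits in the membrane of the nerve terminal and is part of the SNARE complex, which lets synaptic vesicles fuse and release transmitter.

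The expected counts, which are the numbers of fragments that RSEM assigned to each transcript, summed to between 11177800 in early replicate 2 and 46307057 in early replicate 1. Across the 22132 Trinity genes tested, Pearson's r of log2(CPM + 1) was at least 0.976 between early libraries and 0.937 to 0.983 between late libraries. Between the stages it was 0.803 to 0.862. Late replicate 2 stood somewhat apart from the other late libraries, with 0.937 and 0.955. Levels are given as CPM, the counts scaled by library size and TMM factors, and as TPM where genes are compared, since TPM corrects for length. All log2 fold changes (log2FC) are early minus late, so that a negative value is higher in late instars. At an adjusted p of at most 0.05 in edgeR's quasi-likelihood test, 29.7% of all tested Trinity genes differed between the stages, with 15.7% higher in the early stage and 14% in the late stage. Of the genes described here, 2 of 3 passed, both higher in late instars, and foraging did not. In whole larvae, fewer cells of a type and less RNA per cell cannot be told apart.

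Of these genes, the cAMP-dependent protein kinase changed the most between the stages. It was close to undetected in early instars and present in every late library. Foraging as a whole did not pass the test. Its isoforms i6 and i8 had 0 counts in every early library, but each was found in only part of the late libraries. The quasi-likelihood test did not call i6, and i8 was too low to be tested. Syntaxin 1a was modestly higher in late instars, with a call close to the threshold that several alternative runs lost.

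In summed TPM, foraging had 8.35, 8.75 and 5.82 in early replicates 1, 2 and 3, and 6.95, 9.25 and 7.42 in late replicates 1, 2 and 3. Syntaxin 1a had 3.08, 2.21 and 1.98 TPM in early instars and 5.30, 5.08 and 4.74 TPM in late instars. The cAMP-dependent protein kinase had 0.02, 0 and 0.01 TPM in early instars and 2.59, 1.56 and 1.73 TPM in late instars. The order of the levels was thus the same in all 6 libraries, with foraging highest, then syntaxin 1a and then the kinase, and within a stage the values of neighbours in this order did not overlap.

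**Figure D1:**
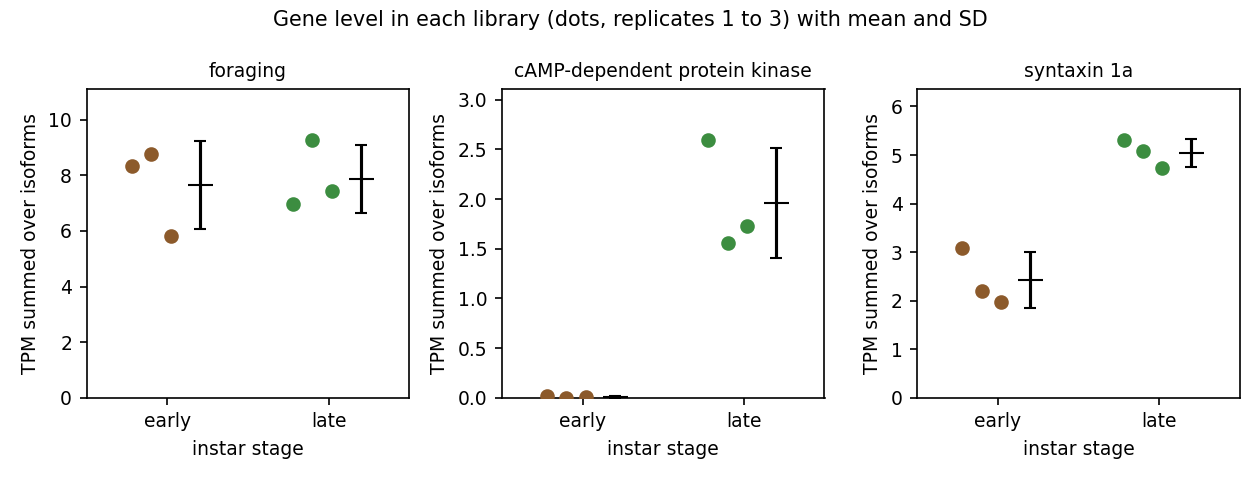
TPM summed over all isoforms of each gene (vertical axis, from 0) in the early and late instar libraries. Each dot is 1 library, in the order of replicates 1 to 3, and the bars give the mean and SD. The stages overlap for foraging, while every late library lies above every early library for the kinase and for syntaxin 1a.

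The Trinity gene of the cAMP-dependent protein kinase consisted of a single transcript of 1535 bp. Its expected counts were 4, 0 and 1 in early replicates 1, 2 and 3 and 390, 199 and 115 in late replicates 1, 2 and 3. Scaled for depth, this is 0.0818, 0 and 0.0442 CPM in the early and 10.4, 7.15 and 7.59 CPM in the late libraries. The deepest library, early replicate 1, held only 4 fragments of it, so that its low level in early instars was not limited to the shallow libraries. The stages did not overlap. Of all tested Trinity genes, 44.5% did not overlap between the stages, and 20.7% did so with late instars higher.

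The mean was 0.0420 ± 0.0409 CPM in the early and 8.39 ± 1.78 CPM in the late libraries (SD, n = 3 per stage). The gene-level log2FC was -7.06 (standard error 0.45, 95% interval -8.11 to -6.01, adjusted p = 2.3e-05, edgeR quasi-likelihood). Only 2.73% of the tested genes had a larger log2FC in size, beside a median size of 0.46 over all tested genes. It also passed the stricter limits of the study (adjusted p of at most 0.001 and a log2FC of at least 2 in size), as did 8.82% of all tested genes, and the difference remained with each library left out in turn (log2FC -7.93 to -6.85). Pooled over the libraries of a stage, 704 late counts against 5 early counts gave a rate 144 times higher in late instars, with an exact conditional binomial interval of 61.5 to 445 that covers counting error only. In the fit across all transcripts, where the spread between replicates was larger, the same transcript had a log2FC of -7.17 with a standard error of 0.68 and an adjusted p of 0.00447 (edgeR quasi-likelihood). This passed 0.05, but not 0.001, and 0 of the 52912 transcripts in that fit met the limits of the study. With the replicate number as a block the adjusted p was 0.0536 (edgeR quasi-likelihood). That block left 354 transcripts called, against 4900 without it. For the kinase transcript the adjusted p was 4.4e-10 in edgeR's exact test and 3.7e-17 in DESeq2. The study had called this transcript on the same libraries, so the test here is a further look at those data.

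Foraging had 9 isoforms of 479 to 3937 bp, and 4.08% of Trinity genes had as many or more. Its gene sum held 3607, 879 and 1309 counts in early replicates 1, 2 and 3 and 1876, 2181 and 873 counts in late replicates 1, 2 and 3. After scaling, these were 73.7, 81.7 and 57.9 CPM in the early and 50.2, 78.4 and 57.6 CPM in the late libraries. The stages overlapped, and late replicate 2 lay above 2 of the 3 early libraries. The means were 71.1 ± 12.1 CPM in the early and 62.1 ± 14.6 CPM in the late libraries (SD, n = 3 per stage), with a log2FC of 0.20 (standard error 0.22, 95% interval -0.32 to 0.71, adjusted p = 0.565, edgeR quasi-likelihood). The interval excludes a change of the whole gene by 2 times in either direction, and 75.4% of the tested genes had a larger log2FC in size. Without the isoform i6, described next, the log2FC of the sum was 0.28 (adjusted p = 0.439, edgeR quasi-likelihood).

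The transcript of foraging that the study names is the isoform i6 (2455 bp), a minor isoform with 2.31% of the counts of the gene. It had 0 counts in all early libraries and 140, 0 and 108 counts in late replicates 1, 2 and 3, which is 3.75, 0 and 7.21 CPM. It was thus missing from late replicate 2, where the gene as a whole was at its highest late level, and the stages overlapped at 0. Of the TPM of the gene, i6 made up 8.04% in late replicate 1 and 13.18% in late replicate 3. The late mean was 3.65 ± 3.61 CPM (SD, n = 3), 99.5 times a floor of 3 counts over the early libraries. This ratio allows for counting error in the early libraries only. It does not cover the spread of the late libraries, of which replicate 2 was at 0, and is no lower bound on the stage difference. The ratio was 51.1 without late replicate 3, 149 without late replicate 2 and 98.1 without late replicate 1.

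The quasi-likelihood test did not call i6 (fitted log2FC -9.62, standard error 3.10, adjusted p = 0.166, edgeR). Since early instars were at 0, the fitted value depends on the prior count that edgeR adds, and a prior count of 2 gave -5.64. The call depended on the test, with an adjusted p of 0.000993 in edgeR's exact test and 0.0145 in DESeq2. Without late replicate 2, edgeR's quasi-likelihood test called it (log2FC -10.20, adjusted p = 0.0239). Over the 13 alternatives in edgeR and DESeq2 that kept it in the test, the adjusted p ranged from 0.000993 to 0.300. Without late replicate 1 or late replicate 3, the filter on low counts removed it. The study names this isoform for the gene and had called it on the same libraries.

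A further isoform, i8 (1872 bp), showed the opposite pattern among the late libraries. It had 0 counts in the early libraries and in late replicates 1 and 3, and 47 counts (1.70 CPM) in late replicate 2, and it was under the filter. Together i6 and i8 held 140, 47 and 108 counts in late replicates 1, 2 and 3, which is 7.46%, 2.16% and 12.4% of the count of the gene, and 0 in every early library. This sum was formed after the values had been seen and was not tested. Presence in part of the late libraries was not particular to foraging. Among all tested transcripts, 1250 had 0 counts in every early library, and 268 of these were, like i6, also at 0 in exactly 1 late library. That library was replicate 2 for 117 of them, replicate 3 for 114 and replicate 1 for 37.

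**Figure D2:**
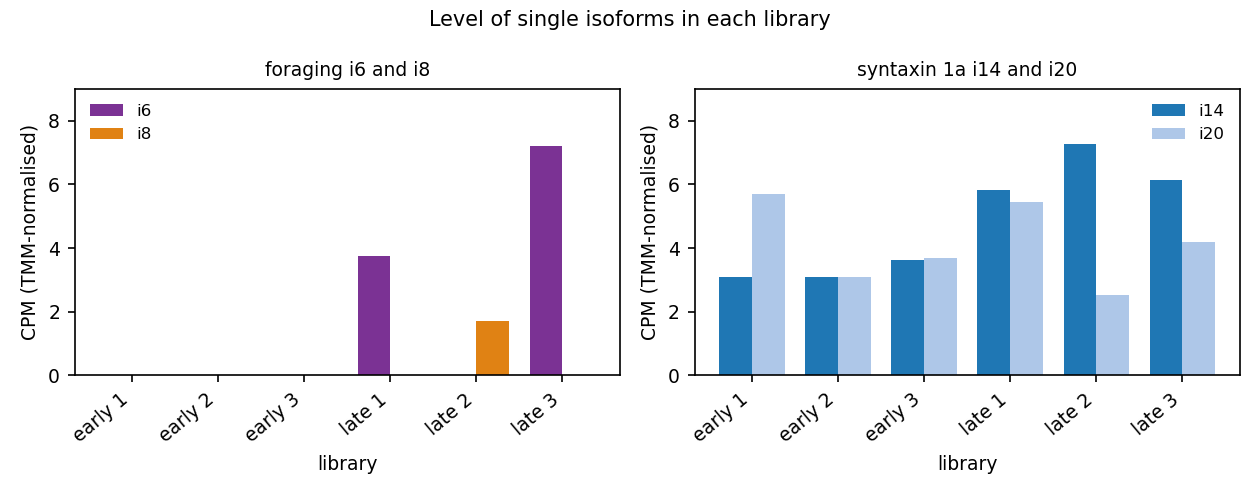
CPM after TMM scaling (vertical axis, from 0) of single isoforms in each of the 6 libraries, with foraging i6 and i8 on the left and syntaxin 1a i14 and i20 on the right. Foraging i6 is present in late replicates 1 and 3 (3.75 and 7.21 CPM) and i8 in late replicate 2 only (1.70 CPM), while i14 is higher in every late library than in any early library and i20 is not.

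Most of the foraging signal came from isoforms with no called difference. The isoform i5 (3259 bp, 52.2% of the counts) had 41.2, 46.5 and 29.0 CPM in the early and 24.2, 41.8 and 26.7 CPM in the late libraries (log2FC 0.33 ± 0.30 standard error, adjusted p = 0.591 by edgeR's quasi-likelihood test). The isoform i1 (2443 bp, 31.1% of the counts), which is 12 bp shorter than i6, had 26.8, 14.5 and 19.1 CPM in the early and 14.1, 24.9 and 16.5 CPM in the late libraries (log2FC 0.12 ± 0.33 standard error, adjusted p = 0.891 by the same edgeR test). Both overlapped between the stages. For i5 the 95% interval from -0.39 to 1.05 includes a level 2 times higher in early instars. For i1 the interval from -0.69 to 0.94 leaves room for differences close to 2 times. RSEM divides a fragment that fits several isoforms between them, so that isoform counts are estimates whose division was not tested here. How much sequence i1 and i6 share was not examined.

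The isoform i9 (1799 bp, 9.55% of the counts) had a log2FC of 0.10, and i3 and i7 had log2FC of 0.18 and 1.25, with adjusted p from 0.511 to 0.942 for these isoforms (edgeR quasi-likelihood). The isoform i7 was highest in early replicate 2, with 8.26 CPM against 0.534 to 2.68 CPM elsewhere, and without that library its log2FC was -0.09. The remaining isoforms were i4 (479 bp), with 8 early and 5 late counts, and i2 (3937 bp), the longest, with 0 counts in all libraries. Together i1, i5 and i9 took 96.3%, 88.9% and 95.7% of the gene count in early replicates 1, 2 and 3 and 88.8%, 93.8% and 84.0% in late replicates 1, 2 and 3. These shares overlapped between the stages.

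Whether the division of the gene among its isoforms differed was tested over the 6 isoforms that passed the filter. The isoform usage test gave an adjusted p of 0.0572 for foraging (F = 4.76, unadjusted p = 0.00354, edgeR diffSpliceDGE), just short of the threshold that 5.76% of the 11676 genes with at least 2 tested isoforms passed. Without late replicate 2 the adjusted p was 0.000297, and over each library left out in turn it reached 1. The values of 1 came without late replicate 1 and without late replicate 3, where 5 and 4 isoforms were left in the test and i6 was not among them. The call thus changed when late replicate 2, the late library without i6, was left out. With the replicate block it changed too (adjusted p = 0.00704, edgeR diffSpliceDGE). The usage test of single isoforms, over all libraries, called i6 (F = 22.8, adjusted p = 0.00873, edgeR diffSpliceDGE). It called none of the other foraging isoforms in the test. In simulated data, the gene-level usage test called more unchanged genes than its threshold allows.

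**Figure D3:**
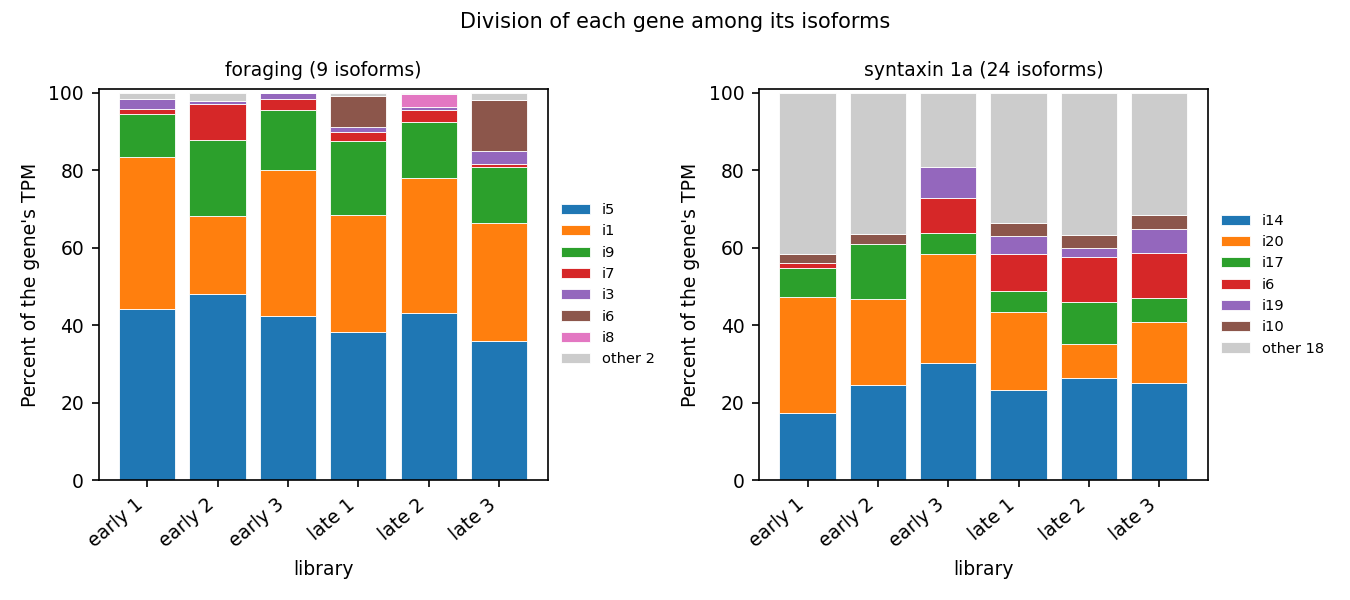
Percent of the TPM of the gene (vertical axis) that each isoform holds in each of the 6 libraries, for foraging on the left and syntaxin 1a on the right. In foraging, i5 and i1 hold most of the signal in every library, and i6 appears in late replicates 1 and 3 at 8.04% and 13.18%, while syntaxin 1a is spread over many isoforms.

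Syntaxin 1a had 24 isoforms of 220 to 1900 bp, and only 0.222% of Trinity genes had as many or more. Its gene sum held 577, 102 and 209 counts in early replicates 1, 2 and 3 and 576, 446 and 220 counts in late replicates 1, 2 and 3. Scaled for depth, these were 11.8, 9.48 and 9.24 CPM in the early and 15.4, 16.0 and 14.5 CPM in the late libraries. Every late library lay above every early library, which also holds for 20.7% of all tested Trinity genes. The highest early value was in replicate 1. The late libraries also varied little among themselves.

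The means were 10.2 ± 1.41 CPM in the early and 15.3 ± 0.758 CPM in the late libraries (SD, n = 3 per stage), 1.51 times higher in late instars. The log2FC was -0.59 (standard error 0.18, 95% interval -1.0 to -0.17, adjusted p = 0.0419, edgeR quasi-likelihood), and 42.1% of the tested genes had a larger log2FC in size. The call lay close to the threshold. It was lost in edgeR's exact test (adjusted p = 0.119), with the replicate number as a block (adjusted p = 0.064), and on leaving out any library other than early replicate 1 (adjusted p 0.0641 to 0.148), and the direction was the same in each. In summed TPM the means were 2.42 ± 0.58 in early and 5.04 ± 0.282 in late instars, 2.08 times higher. Isoforms under 500 bp, of which the gene had 10, weigh more in TPM than in counts, and over the longer isoforms alone the ratio of TPM was 1.76.

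The transcript of syntaxin 1a that the study names, i14 (1763 bp, 36.3% of the counts), had 3.09, 3.09 and 3.64 CPM in the early and 5.82, 7.28 and 6.14 CPM in the late libraries. Its stages did not overlap, which also holds for 32.9% of all tested transcripts and, with late instars higher, for 15.7%, and its log2FC was -0.97 (standard error 0.28, 95% interval -1.65 to -0.29). It did not pass the adjusted threshold (p = 0.0131, adjusted p = 0.0941, edgeR quasi-likelihood), while the adjusted p was 0.00244 in DESeq2 and 0.513 in the exact test.

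The isoform i20 (1900 bp, 34.0% of the counts) had 5.71, 3.09 and 3.68 CPM in the early and 5.44, 2.54 and 4.20 CPM in the late libraries. Its stages overlapped, with a log2FC of 0.04 whose 95% interval ran from -1.0 to 1.08 (adjusted p = 0.978, edgeR quasi-likelihood). The ratio of i14 to i20 was 0.541, 1 and 0.988 in early and 1.07, 2.87 and 1.46 in late replicates 1, 2 and 3, so that i14 was the more abundant of the pair in each late library. This ratio was chosen after the values had been seen. The isoform usage test over the 3 isoforms past the filter did not call a difference (F = 1.63, adjusted p = 0.742, edgeR diffSpliceDGE).

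The isoform i17 (1302 bp, 8.44% of the counts) had 0.930, 1.27 and 0.471 CPM in the early and 0.965, 2.14 and 1.07 CPM in the late libraries, and these overlapped (log2FC -0.65, adjusted p = 0.627, edgeR quasi-likelihood). The other 21 isoforms were under the filter, with at most 74 counts over all libraries. Their sum was 2.49, 1.82 and 1.2 CPM in the early and 3.22, 4.20 and 3.34 CPM in the late libraries, 1.95 times higher in late instars. It did not overlap between the stages and was not tested. Late instars were higher without overlap for 15.7% of all tested transcripts and 20.7% of all tested Trinity genes. Among these 21 isoforms, i22 (847 bp), which had the most counts, held 37 in early and 37 in late instars. The isoforms i6 (406 bp), i10 (1239 bp) and i19 (997 bp) had 6, 14 and 12 early counts and 33, 48 and 43 late counts, whereas i11 (1111 bp) and i7 (1036 bp) had 20 and 14 early counts and 9 and 3 late counts. Of all 24 isoforms, 17 had the higher mean in late and 7 in early instars. In 7 isoforms the counts were 0 in every early library, with 1 to 15 counts in late instars, and no isoform was at 0 in late instars only. Such low counts do not show absence in early instars.

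Over the 3 genes, 10 of the 34 isoforms passed the filter and 24 did not, yet the tested ones held 99.4% of the counts of foraging and 78.8% of those of syntaxin 1a. Of the 10 tested isoforms, the transcript of the cAMP-dependent protein kinase alone passed an adjusted p of 0.05, beside 9.26% of all 52912 tested transcripts. An unadjusted p under 0.05 was found for 24.3% of those transcripts and for 3 of the 10 isoforms here. These were that of the kinase, foraging i6 and syntaxin 1a i14, which are the transcripts that the study names. The exact test called 2 of the 10 isoforms and 12.9% of all tested transcripts, and DESeq2 called 3 of the 10 and 20.2%.

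**Figure D4:**
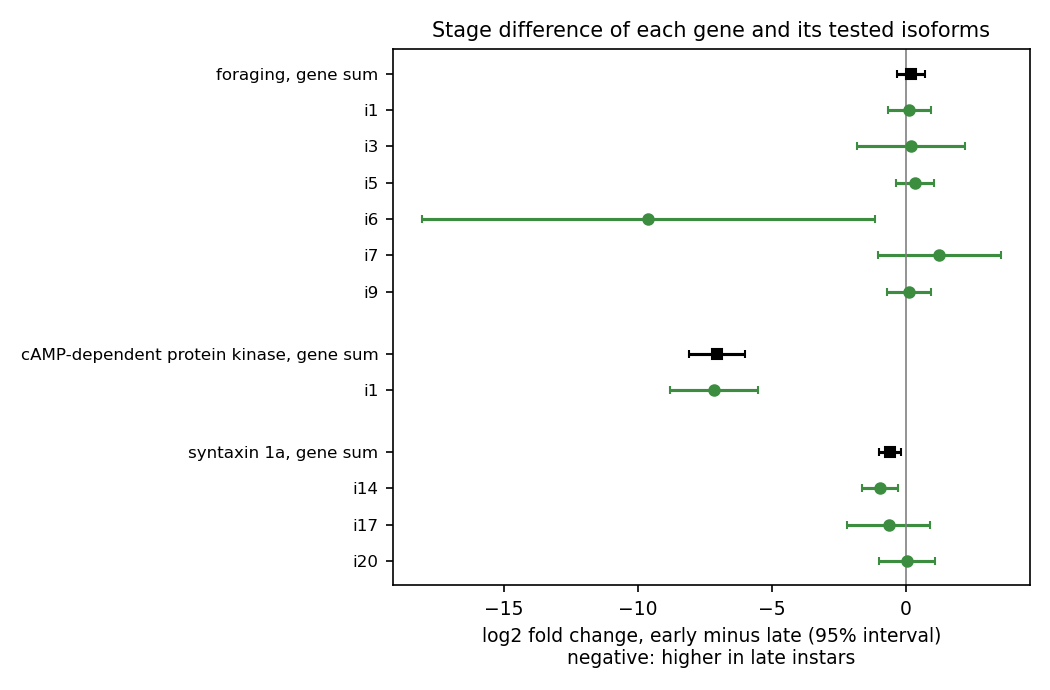
Log2 fold change, early minus late, with its 95% interval (horizontal axis) for the sum of each gene (squares) and each tested isoform (circles). The kinase lies far to the late side at -7.06, the foraging sum lies at 0.20, and the wide interval of foraging i6, whose fitted value depends on the prior count, contrasts with those of i1 and i5.

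The remaining 8 candidate social genes of the study were tested on their gene sums in the same fit. At an adjusted p of 0.05, 5 were higher in early instars, beside 15.7% of all tested genes. In late instars 1 was higher, beside 14% of all tested genes, and 2 were not called. Those higher in early instars were octopamine receptor (log2FC 4.98), neuropeptide F precursor (3.63), period (2.45), takeout (2.36) and npr-1 (1.74). The vitellogenin or vitellogenin receptor gene was higher in late instars (-3.04). The dopamine receptor (0.60, adjusted p = 0.0941, edgeR quasi-likelihood) and the corazonin receptor (-0.08, adjusted p = 0.861, edgeR quasi-likelihood) were not called. The median log2FC of these 8 genes was 2.05, beside 0.0028 over all tested genes, whereas none of foraging, the kinase and syntaxin 1a was called higher in early instars. The study listed these genes for their role in other invertebrates and names a transcript of each, tested on the same libraries. In the transcript fit here, 4 of these 8 transcripts were called, beside 9.26% of all tested transcripts. Unlike its gene sum, that of the dopamine receptor was called (log2FC 4.88, adjusted p = 0.0116, edgeR quasi-likelihood). Those of npr-1 (0.56, adjusted p = 0.881), period (4.50, 0.0614) and takeout (4.83, 0.105) were not called by this test, unlike their gene sums. For period the adjusted p was 0.000346 in edgeR's exact test and 0.000174 in DESeq2. For takeout it was 0.000131 in the exact test and 0.00398 in DESeq2, whereas neither called npr-1.

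Across the 6 libraries, the pattern of the kinase was most like that of syntaxin 1a among these genes (Pearson's r of log2(CPM + 1) = 0.93), and the reverse also held. The vitellogenin or vitellogenin receptor gene, also higher in late instars, was close behind, with r = 0.92 for the kinase and 0.87 for syntaxin 1a. For foraging the nearest was period (r = 0.72). The 6 points share 2 stages, and these values are given as a description.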

How the data were processed

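The authors trimmed the reads with Trimmomatic 0.36 (the submitters' notes also name FastQC 0.11.7), assembled all libraries with Trinity and ran RSEM. For RSEM, the sources used here give neither version nor aligner. The deposited expected counts are not normalized. The authors also deposited TPM and FPKM, computed within a library, and the percent of its gene's TPM that each isoform holds. FPKM entered no result.

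Expected counts (for genes, summed over isoforms) were rounded and tested with edgeR 4.0.16 in R 4.3.3 (TMM, factors 0.949 to 1.06 over both fits, estimateDisp, glmQLFit and glmQLFTest). Features above 1 CPM in at least 2 libraries entered, with Benjamini-Hochberg adjustment over all of them and no covariate. Isoform usage was tested with diffSpliceDGE, which called more unchanged genes in simulated data than its threshold allows. Alternatives were DESeq2 1.42.0, the exact test, other factors, filters, prior count and dispersions, and each library left out. The text names the transcripts of the study, isoforms with at least 10% of their gene's counts and called isoforms; others were named after their values were seen. The members and lists were chosen with earlier results of these data known. Replicates are pools of siblings, so p-values measure the spread between pools. The ratio to a floor of 3 counts covers counting error in the early libraries only, and the count interval covers counting error only.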

Additional observations from a re-analysis of the deposited data

How the results depend on the processing

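The stage difference of the cAMP-dependent protein kinase gene and the lack of a call for the foraging gene sum were the same in every alternative run. The syntaxin 1a gene sum kept its direction but lost its call in the exact test (log2FC -0.59), without composition factors (-0.61), without a filter (-0.60), with the replicate block (-0.59) and at the limits of the study (-0.59), and its values lay between -0.72 and -0.53 with a library left out. Its ratio of late to early level was 1.51 in CPM, 2.08 in TPM and 1.76 in TPM of isoforms of at least 500 bp. The kinase transcript was not called with the replicate block (-7.39) or at the limits of the study (-7.17). Foraging i6 was called by the exact test (-9.62), by DESeq2 (-8.88) and without a filter (-9.59), with -10.2 to -9.38 over the libraries whose removal kept it in the test, and filterByExpr and a minimum in 3 libraries removed it. Syntaxin 1a i14 was called by DESeq2 (-1.02).

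Foraging isoform usage passed with the replicate block (edgeR adjusted p = 0.00704) and with a Simes combination (edgeR adjusted p = 0.0168), did not with filterByExpr (1, over 5 isoforms) or a minimum in 3 libraries (0.993, over 4 isoforms), both without i6, and ranged from 0.000297 to 1 with a library left out. The isoforms called numbered 2 in the exact test, 3 in DESeq2, 2 without a filter, 0 with the replicate block, 0 at the limits of the study and 1 to 2 with a library left out. Some uncalled values changed sign, among them that of foraging i7, with a log2FC of 1.25 in all libraries. For syntaxin 1a i20 this was -0.010 in DESeq2, -0.017 with RLE factors, -0.014 without a filter and -0.25 to 0.29 with a library left out. With a library left out, foraging i1 ran from -0.12 to 0.39, i3 from -0.14 to 0.50, i7 from -0.094 to 1.90 and i9 from -0.22 to 0.26. Over all transcripts, 4900 were called, against 10580 in DESeq2, 354 with the replicate block, 0 at the limits of the study (12872 had an unadjusted p under 0.05, and at those limits the exact test called 3276 and DESeq2 4320) and 2527 to 5667 with a library left out. Over all genes, 6569 were called, 1953 of them at the limits of the study, and 4685 to 7582 with a library left out. The cause of these changes was not tested.

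Same-numbered libraries deviated together at r = 0.111, 0.0202 and 0.221 for replicates 1, 2 and 3. For replicates 1 and 3 the same number gave the highest r. Early replicate 2 had 0.0251 with late replicate 3, hardly above its 0.0202 with late replicate 2. The main fits did not take the numbers as pairs, and whether they mark pairs was not tested. The sum without i6, the TPM of longer isoforms and the Simes combination were chosen after seeing the data. The shallowest library held 11177800 counts, so that isoforms near 1 CPM rest on few fragments there, and those under the filter were left out of the tests by that choice.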

Other observations

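Trinity also assembled neighbouring genes from the same sequence components as the foraging and syntaxin 1a genes, and these were not added to the sums. Beside foraging, they held 2 to 11 counts (TRINITY_DN18355_c0_g2) and 25 to 136 counts (TRINITY_DN18355_c0_g3) per library. Beside syntaxin 1a, TRINITY_DN21083_c1_g2 held 8 to 39 counts per library. Their protein matches were not examined here.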
